A study of Mus musculus with 7 samples.

Results

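The core autophagy machinery was examined as a set of 30 protein-coding genes in islets isolated from the mouse pancreas after a high-fat diet. The genes were taken by symbol from the deposited count table, which lists 55487 genes, and each of the 30 symbols matched 1 row. There were 3 libraries of islets from mice with a beta-cell specific Traf6 KO and 4 from control mice, and both groups received a 60% high-fat diet for 15 weeks. After isolation, all islets recovered in culture medium for 24 hours before RNA was taken. The sources used here do not give the promoter that drove the deletion, nor the age, strain or sex of the mice. Traf6 encodes a ubiquitin ligase of innate immune signalling, and the study's title places its work in mitophagy, the removal of mitochondria by autophagy.

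Autophagy encloses cytoplasm in a double membrane, the autophagosome, and delivers it to lysosomes. A kinase complex built on ULK proteins starts the process, a lipid kinase complex around Becn1 marks the membrane, and lipid carriers enlarge it. A conjugation cascade then fixes small ubiquitin-like proteins of the Atg8 family (LC3 and GABARAP) to the membrane, where they help bind cargo. Mtor and Rptor form the kinase complex that holds autophagy down when nutrients are plentiful, and Tfeb and Tfe3 are transcription factors that switch on lysosomal and autophagy genes. In beta cells autophagy is known for the turnover of mitochondria and insulin granules.

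Library totals ran from 22104256 to 25091055 counts in Traf6 KO and from 22161097 to 29917292 counts in control. The 25 acinar markers, digestive enzyme genes and their regulators, took 49.4%, 38.5% and 1.46% of all counts in Traf6 KO 1 to 3, against 17.6%, 0.433%, 0.420% and 2.95% in controls 1 to 4. Summed markers of beta cells ran from 89600 to 116000 CPM in Traf6 KO and from 156000 to 190000 CPM in control. CPM is the count relative to the library total after scaling by TMM factors. All 25 acinar markers had log2 fold changes above 0 and all 10 beta-cell markers below 0, and the part of either in the results was not tested beyond the fits and left-out libraries given beside them. Traf6 itself stood at 14.8, 15.4 and 14.5 CPM in Traf6 KO, against 17.9, 25.5, 22.1 and 12.6 CPM in controls 1 to 4, so the library labelled control 4 lay below every Traf6 KO library. Its log2 fold change was -0.40 ± 0.22 SE (adjusted p = 0.416 in edgeR), -0.55 without the library labelled control 4 and -0.24 without control 2. Traf6 thus did not bear out the genotype label of that library, whose values are given with this reservation. The count covers the whole gene, so loss of an exon is not seen apart. Xist, the RNA of the inactive X chromosome, stood at 421 CPM in Traf6 KO 3 and at no more than 0.388 CPM in the other libraries. Traf6 KO 3 and the library labelled control 4 also carry tags in their titles that begin with S, and the other tags begin with Q or R. In bulk islets, fewer cells of a type and less RNA per cell cannot be told apart.

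None of the 30 autophagy genes passed the test between genotypes after adjustment over all genes tested. All 30 passed the filter on low counts, with 137 to 8490 counts per gene and library. With edgeR's quasi-likelihood test, 0 of 30 had an adjusted p under 0.05, and 0 of 16203 genes (0%) did. The 30 log2 fold changes, Traf6 KO over control, ran from -0.22 to 0.43 with a median of 0.07, while the median over all genes tested was 0.01. An absolute log2 fold change under 0.5 was found for all 30 genes and for 78.7% of all genes tested. Before adjustment, 4 of the 30 (13.3%) had p under 0.05, near the 16% of all genes that did, and all 4 were higher in Traf6 KO. The same 4 genes, Atg9a, Ulk2, Mtor and Rb1cc1, had every Traf6 KO library above every control (13.3% of the 30), which held for 5.58% of all genes. Their log2 fold changes were 0.39 for Atg9a, 0.43 for Ulk2, 0.32 for Mtor and 0.30 for Rb1cc1 without Traf6 KO 3, and 0.41 for Atg9a, 0.36 for Ulk2, 0.24 for Mtor and 0.28 for Rb1cc1 without the library labelled control 4. Among the Q- and R-tagged libraries they were 0.37 for Atg9a, 0.43 for Ulk2, 0.28 for Mtor and 0.32 for Rb1cc1. A within-tag value for the S-tagged pair has 1 library per genotype and was not tested. Leaving out the 3 acinar-rich libraries (Traf6 KO 1, Traf6 KO 2 and control 1) leaves 1 Traf6 KO library. The values were then 0.49 for Atg9a, 0.19 for Ulk2, 0.20 for Mtor and 0.11 for Rb1cc1. The opposite pattern, every Traf6 KO library below every control, held for 0 of the 30 and for 8.68% of all genes.

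Other tests called few members as well. The DESeq2 Wald test called 1 of 30 (3.33%), Atg9a, and 4.54% of all genes with an adjusted p. The limma-voom test with sample quality weights called 2 of 30 (6.67%), Atg9a and Ulk2, and 6.46% of all genes. Without Traf6 KO 3, edgeR called 0 of 30 and 4.24% of all genes. The first pair of shares lay near the shares of all genes, and the lowest adjusted p of a member without Traf6 KO 3 was 0.0742.

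The expression level of the machinery was dominated by 2 members of the Atg8 family. Per kilobase of merged exons, Gabarapl1 averaged 109 ± 4.85 RPKM in Traf6 KO and 115 ± 15.5 RPKM in control, and Gabarap 83.1 ± 21.3 RPKM in Traf6 KO and 92.4 ± 7.34 RPKM in control (SD, n = 3 and 4). Together they made up 46.2% of the summed RPKM of the 30 genes in Traf6 KO and 48.4% in control. Map1lc3a followed with 28.8 ± 5.57 RPKM in Traf6 KO and 30.8 ± 1.12 RPKM in control, next to Gabarapl2 with 25.9 ± 1.95 RPKM in Traf6 KO and 30 ± 3.00 RPKM in control. Those neighbours did not differ beyond their spread. Of the 30 genes, 9 exceeded 10 RPKM in control and 16 lay under 5 RPKM. At the low end stood Tfeb with 1.96 ± 0.366 RPKM in Traf6 KO and 1.65 ± 0.162 RPKM in control, and Atg7 with 1.78 ± 0.0402 RPKM in Traf6 KO and 1.77 ± 0.107 RPKM in control. The median member had 5.40 RPKM in Traf6 KO and 4.75 RPKM in control, and its control level lay at percentile 62.8 of the 16188 tested genes with a known length. Merged exons count rare isoforms as well, so a gene with a long rare exon appears lower on this scale.

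**Figure D1:**
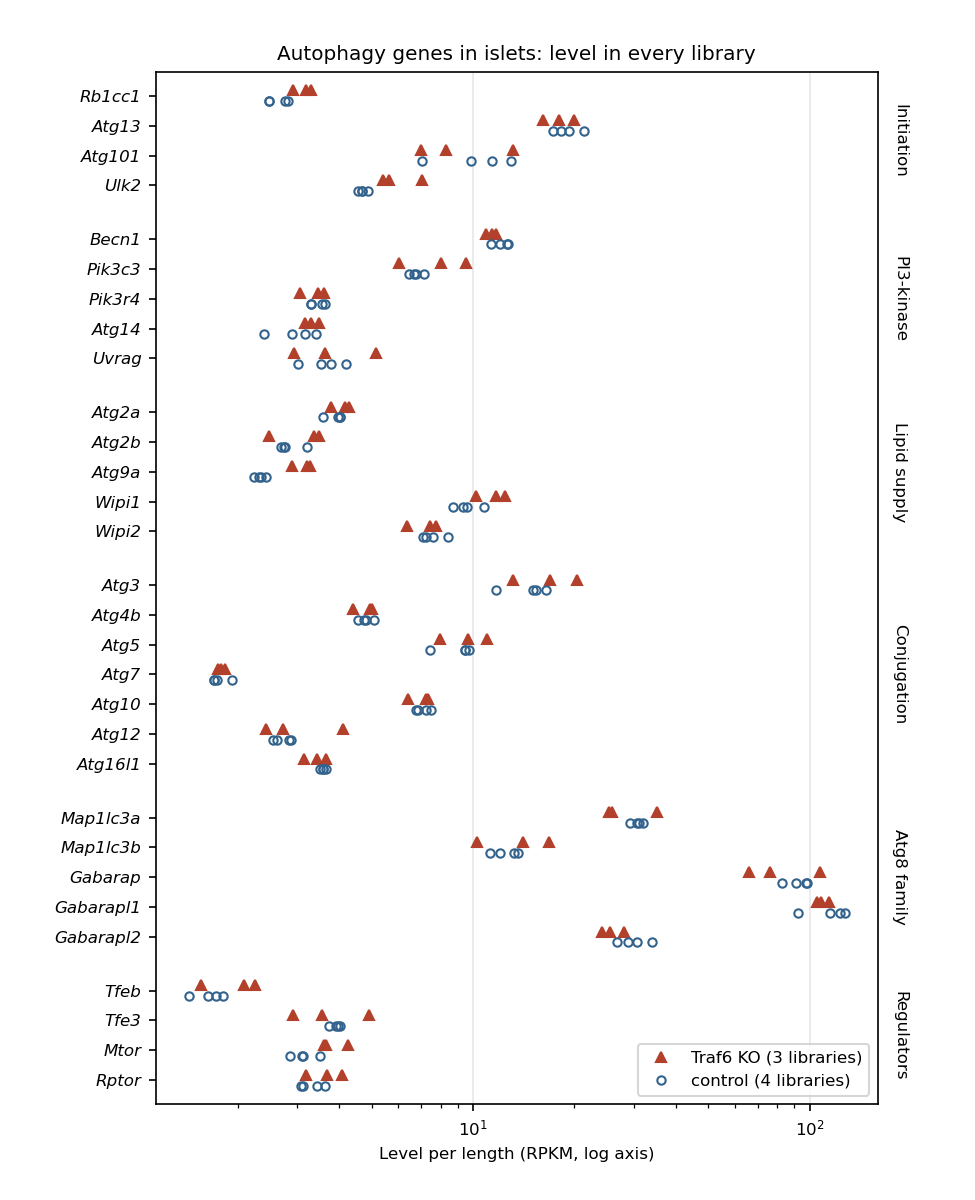
Level of the 30 autophagy genes in RPKM (CPM per kilobase of merged exons, log axis), grouped by role, with 3 Traf6 KO libraries as triangles and 4 control libraries as open circles. Gabarapl1 and Gabarap stand highest in both genotypes, near 100 RPKM, and Tfeb and Atg7 lowest, near 2 RPKM.

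Among the 4 genes of the initiation complex, Ulk2 and Rb1cc1 had higher levels in every Traf6 KO library, while Atg13 and Atg101 overlapped. None of the 4 passed the test (lowest edgeR adjusted p = 0.227). Ulk2, a kinase that starts autophagosome formation (chromosome 11 on GRCm38), stood at 33.7, 42.2 and 32.2 CPM in Traf6 KO 1 to 3, against 28.0, 27.3, 29.0 and 28.0 CPM in controls 1 to 4. The controls lay close together and Traf6 KO 2 was the highest library. Traf6 KO over control gave a log2 fold change of 0.36 ± 0.11 SE (adjusted p = 0.227 in edgeR), and it was 0.19 without the 3 acinar-rich libraries (Traf6 KO 1, Traf6 KO 2 and control 1), which leaves 1 Traf6 KO library. Rb1cc1 encodes FIP200, the scaffold of the complex (chromosome 1, 6206197 to 6276648). Its level was 46.7, 48.4 and 42.7 CPM in Traf6 KO 1 to 3 and 36.4, 36.2, 41.3 and 40.5 CPM in controls 1 to 4. The gap between the lowest Traf6 KO library and the highest control was small. Traf6 KO over control gave a log2 fold change of 0.25 ± 0.10 SE (adjusted p = 0.275 in edgeR), and 0.11 without the 3 acinar-rich libraries.

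Atg13, the adaptor that binds Rb1cc1 to the kinases, had a log2 fold change of -0.08 ± 0.12 SE (adjusted p = 0.766 in edgeR), with 70.4 to 87.2 CPM in Traf6 KO and 75.6 to 93.0 CPM in control. Atg101, the partner that stabilises Atg13, had the largest coefficient of variation of the 30 genes in both genotypes. It stood at 20.99, 13.3 and 11.2 CPM in Traf6 KO 1 to 3 and at 18.2, 15.8, 20.8 and 11.2 CPM in controls 1 to 4. Traf6 KO 3 and the library labelled control 4, the S-tagged pair, were its lowest libraries of each genotype. Traf6 KO over control gave a log2 fold change of -0.13 ± 0.27 SE, with 0.04 when Traf6 KO 3 and -0.43 when Traf6 KO 1 was left out.

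The lipid kinase complex, which makes phosphatidylinositol 3-phosphate on the growing membrane, showed no member with separate genotypes. Of its 5 genes 3 had log2 fold changes above 0 and 2 below, with a median of 0.11 and edgeR adjusted p of 0.511 or more. Becn1, the Beclin 1 scaffold (chromosome 11, ENSMUSG00000035086), stood at 80.2, 77.1 and 82.3 CPM in Traf6 KO and 84.8, 89.2, 89.7 and 80.0 CPM in control. Its ranges overlapped only through the library labelled control 4 and gave a log2 fold change of -0.11 ± 0.09 SE (adjusted p = 0.590 in edgeR). Pik3c3, the catalytic subunit, stood at 42.6, 35.8 and 27.0 CPM in Traf6 KO 1 to 3, against 31.9, 28.8, 29.8 and 30.3 CPM in control. Both acinar-rich Traf6 KO libraries lay above every control and Traf6 KO 3 lay below them. The log2 fold change of Pik3c3 was 0.21 ± 0.15 SE, and -0.02 in a fit with the mean acinar marker level added as a covariate (the acinar-adjusted fit). Pik3r4, its regulatory partner, was at -0.03 ± 0.10 SE, with 29.7 to 34.9 CPM in Traf6 KO and 31.8 to 35 CPM in control.

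Atg14 and Uvrag bind the complex in turn and direct it to autophagosome formation and to endosomes. Atg14 stood at 14.2, 15.0 and 13.6 CPM in Traf6 KO and at 12.5, 13.7, 14.8 and 10.3 CPM in control, a log2 fold change of 0.16 ± 0.14 SE (adjusted p = 0.618 in edgeR). Uvrag stood at 26.5, 32.8 and 46.4 CPM in Traf6 KO 1 to 3, against 27.2, 37.9, 32.0 and 34.3 CPM in controls 1 to 4. Traf6 KO 3 was its highest library and Traf6 KO 1 its lowest. The log2 fold change of Uvrag was 0.11 ± 0.20 SE, -0.15 without Traf6 KO 3, 0.28 without Traf6 KO 1, and 0.39 ± 0.14 SE (adjusted p = 0.270 in edgeR) in the acinar-adjusted fit.

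Atg9a had the largest log2 fold change of the 30 genes. It encodes the scramblase whose vesicles seed the autophagosome (chromosome 1, 75180860 to 75192196, minus strand, ENSMUSG00000033124). Its level was 16.7, 18.5 and 18.9 CPM in Traf6 KO 1 to 3 and 13.5, 13.96, 13.3 and 12.9 CPM in controls 1 to 4. The groups did not overlap, and every control lay within a narrow band. It averaged 18.01 ± 1.203 CPM in Traf6 KO (SD, n = 3) and 13.4 ± 0.462 CPM in control (SD, n = 4). On the log2 scale the difference was 0.43 ± 0.10 SE, a 1.34-fold higher level that did not pass edgeR (adjusted p = 0.189) but passed the DESeq2 Wald test (adjusted p = 0.0126) and limma-voom with quality weights (adjusted p = 0.0372). It ran from 0.39 to 0.49 when each library was left out in turn, was 0.47 ± 0.12 SE (adjusted p = 0.192 in edgeR) in the acinar-adjusted fit, and 0.49 without the 3 acinar-rich libraries. Exons of Atg9a overlap those of Ankzf1 on the opposite strand, and without a stated strand setting their shared reads cannot be told apart. Such an overlap with a gene on the opposite strand was annotated for 9 of the 30 members. Gm29253, on the same strand, also overlaps exons of Atg9a and had 0 CPM in every library. Ankzf1 stood at 22, 20.1 and 24.4 CPM in Traf6 KO and at 19.5, 25.2, 25.0 and 20.1 CPM in control, a log2 fold change of -0.02 ± 0.14 SE (adjusted p = 0.963 in edgeR).

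The other genes of membrane growth overlapped between genotypes. Wipi1, which reads the lipid mark on the membrane, stood at 54.6, 51.4 and 44.9 CPM in Traf6 KO 1 to 3, against 41.1, 47.8, 38.5 and 42.2 CPM in control. Both acinar-rich Traf6 KO libraries lay above every control, and Traf6 KO 3 lay within them. On the log2 scale the difference was 0.25 ± 0.11 SE (adjusted p = 0.328 in edgeR), and 0.06 without the 3 acinar-rich libraries. Wipi2, the reader that recruits the conjugation machinery, was at -0.08 ± 0.11 SE, with 67.1 to 81.6 CPM in Traf6 KO and 74.6 to 89.0 CPM in control. The lipid transporters Atg2a and Atg2b were at 0.06 ± 0.09 and 0.12 ± 0.14 SE. Atg2a had 29.0 to 33.0 CPM in Traf6 KO and 27.6 to 30.9 CPM in control, and Atg2b 33.3 to 47.0 CPM in Traf6 KO and 36.2 to 43.4 CPM in control.

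**Figure D2:**
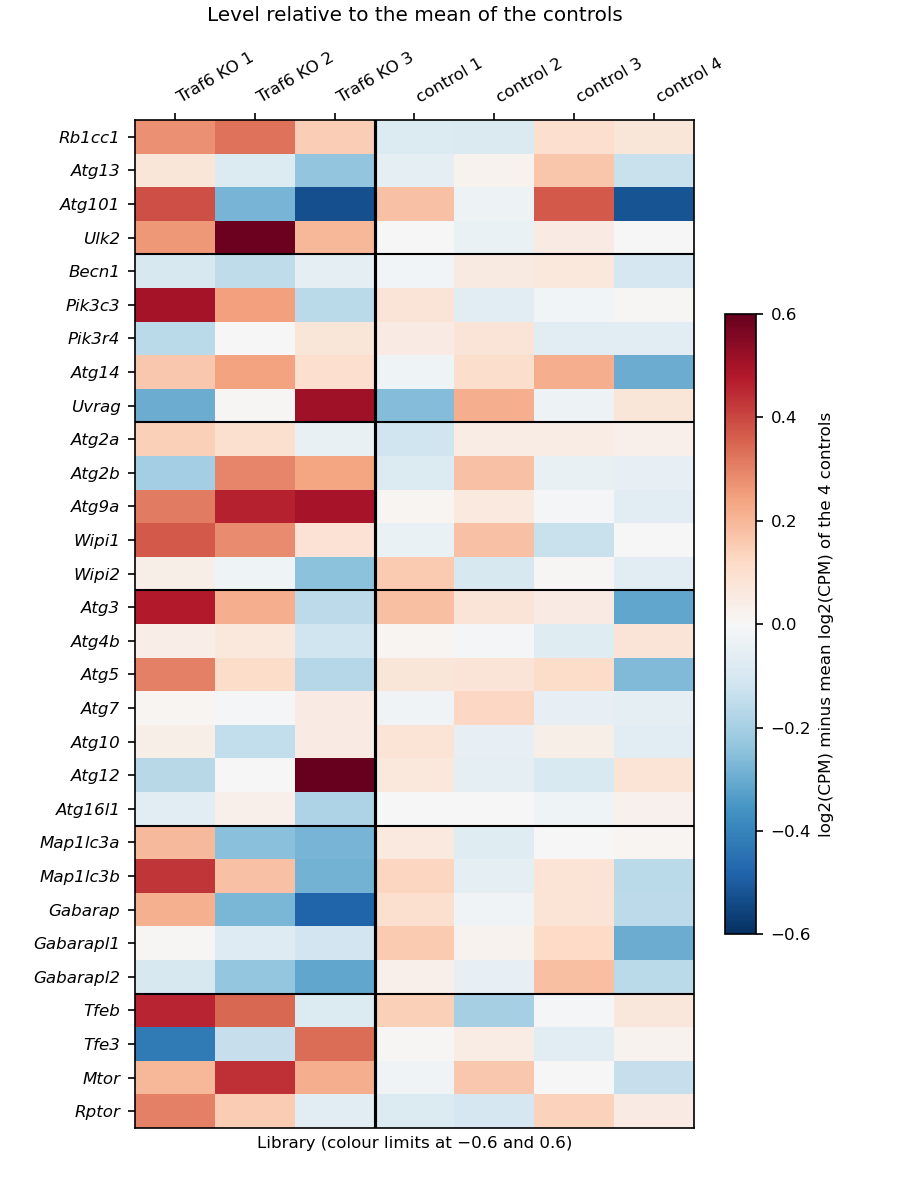
Level of each gene in each library as log2(CPM) minus the mean log2(CPM) of the 4 controls, with the 3 Traf6 KO libraries on the left, horizontal lines between roles and red for higher levels. Atg9a, Ulk2, Rb1cc1 and Mtor are red in all 3 Traf6 KO libraries. So are Atg14 and Wipi1, whose levels overlap with the controls. Traf6 KO 1 and Traf6 KO 3 differ in colour for many other genes.

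The conjugation cascade held the genes closest to no difference. Of its 7 members 4 lay above 0 and 3 below, the median log2 fold change was 0.02, and the lowest edgeR adjusted p was 0.615. Atg7, the activating enzyme of the cascade (chromosome 6), stood at 12.4, 12.2 and 12.7 CPM in Traf6 KO and at 12.1, 13.4, 11.9 and 11.8 CPM in control. All 7 libraries thus lay within a narrow range, and the log2 fold change was 0.02 ± 0.11 SE. Atg4b, the protease that trims the Atg8 proteins, was at -0.01 ± 0.09, Atg10, the conjugating enzyme for Atg12, at -0.02 ± 0.11, and Atg16l1, which places the Atg5 conjugate on the membrane, at -0.07 ± 0.09 SE. Atg5, the acceptor of Atg12, had 18.8 to 26.0 CPM in Traf6 KO and 17.6 to 22.8 CPM in control, a log2 fold change of 0.08 ± 0.15 SE.

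Atg3 and Atg12 carried a wide spread among the Traf6 KO libraries. Atg3, the enzyme that hands Atg8 proteins to the lipid, stood at 63.9, 53.4 and 41.2 CPM in Traf6 KO 1 to 3, against 52.0, 48.5, 47.5 and 36.96 CPM in controls 1 to 4. Traf6 KO 1 was the highest library, and within each genotype the S-tagged library was the lowest. Its log2 fold change was 0.19 ± 0.17 SE (adjusted p = 0.615 in edgeR), and -0.01 in the acinar-adjusted fit. Atg12, the ubiquitin-like protein joined to Atg5, stood at 18.6, 20.95 and 31.6 CPM in Traf6 KO 1 to 3, against 21.8, 20.2, 19.6 and 22.1 CPM in controls. Traf6 KO 3 alone lay above the controls. The log2 fold change of 0.19 ± 0.18 SE (adjusted p = 0.635 in edgeR) was -0.08 when Traf6 KO 3 and 0.33 when Traf6 KO 1 was left out.

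The 5 genes of the Atg8 family overlapped between genotypes, and 4 of them had log2 fold changes below 0 (median -0.10, lowest edgeR adjusted p = 0.376). Gabarapl2, a GABARAP protein also known from Golgi transport (chromosome 8), stood at 65.0, 59.2 and 56.1 CPM in Traf6 KO and at 71.1, 67.3, 78.7 and 62.1 CPM in control. Only Traf6 KO 1 lay above the lowest control, the library labelled control 4. Its log2 fold change of -0.22 ± 0.11 SE (adjusted p = 0.376 in edgeR) was the lowest of the 30. Gabarap stood at 197, 141 and 122 CPM in Traf6 KO 1 to 3, against 182, 168, 180 and 152 CPM in controls 1 to 4. Traf6 KO 1 was its highest library and the other two Traf6 KO libraries were its lowest. On the log2 scale the difference was -0.15 ± 0.17 SE, -0.37 without Traf6 KO 1 and -0.01 without Traf6 KO 3. Gabarapl1 stood at 230, 217 and 211 CPM in Traf6 KO and at 255, 232, 248 and 186 CPM in control, a log2 fold change of -0.07 ± 0.14 SE.

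Of the LC3 genes, Map1lc3b, the usual marker of autophagosomes at the protein level, stood at 126, 106 and 77.1 CPM in Traf6 KO 1 to 3, against 103, 90.5, 99.5 and 83.98 CPM in controls 1 to 4. The highest and the lowest library were both Traf6 KO. Its log2 fold change was 0.13 ± 0.17 SE (adjusted p = 0.736 in edgeR), 0.30 when Traf6 KO 3 and -0.03 when Traf6 KO 1 was left out, and -0.11 in the acinar-adjusted fit. Map1lc3a, its paralogue, stood at 41.6, 30.5 and 29.96 CPM in Traf6 KO 1 to 3, against 37.8, 34.6, 36.3 and 36.7 CPM in controls. Traf6 KO 1 lay above all controls and the other two below, with a log2 fold change of -0.10 ± 0.13 SE. Related copies of these genes can share reads, so the split between family members is uncertain. Per length, Gabarapl1 made up 42.2 ± 3.86% of the family in Traf6 KO and 40.7 ± 1.94% in control, and Map1lc3b 5.22 ± 0.675% in Traf6 KO and 4.47 ± 0.102% in control (SD, n = 3 and 4). The Map1lc3b share was 5.58%, 5.65% and 4.45% in Traf6 KO 1 to 3 and 4.35% to 4.58% in control, so the groups overlapped through Traf6 KO 3. The Gabarapl1 shares overlapped as well. Merged exons span 7517 bases for Map1lc3b and 1181 for Map1lc3a, and the share of Map1lc3b depends on that length. By CPM, Map1lc3b stood above Map1lc3a in every library.

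Among the 4 regulators, Mtor was higher in every Traf6 KO library and did not pass the test. Mtor, the nutrient-sensing kinase that holds autophagy down (chromosome 4, ENSMUSG00000028991), stood at 36.4, 42.98 and 36.95 CPM in Traf6 KO 1 to 3, against 31.3, 35.5, 31.7 and 28.8 CPM in controls 1 to 4. The highest control lay just below the lowest Traf6 KO library. On the log2 scale the difference was 0.29 ± 0.11 SE (adjusted p = 0.273 in edgeR). It was 0.30 ± 0.14 SE in the acinar-adjusted fit and 0.20 without the 3 acinar-rich libraries. Rptor, the subunit that presents substrates to it, overlapped, at 55.0, 49.7 and 42.8 CPM in Traf6 KO and 42.2, 41.6, 49.1 and 46.1 CPM in control, a log2 fold change of 0.13 ± 0.12 SE.

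The transcription factors Tfeb and Tfe3 varied in opposite directions among the Traf6 KO libraries. Tfeb stood at 12.8, 11.8 and 8.78 CPM in Traf6 KO 1 to 3, against 10.3, 8.11, 9.22 and 9.74 CPM in controls 1 to 4. Tfe3, which lies on the X chromosome (7762560 to 7775202), stood at 27.0, 32.9 and 45.6 CPM in Traf6 KO 1 to 3, against 36.3, 37.3, 34.5 and 36.7 CPM in controls. Traf6 KO 3, the library with Xist at 421 CPM, had the highest Tfe3 level, and the part of sex in this was not tested. The log2 fold change of Tfeb was 0.25 ± 0.17 SE (adjusted p = 0.493 in edgeR), and 0.01 in the acinar-adjusted fit. That of Tfe3 was -0.04 ± 0.17 SE (adjusted p = 0.931 in edgeR), -0.27 without Traf6 KO 3 and 0.12 without Traf6 KO 1. Both acinar-rich Traf6 KO libraries thus had more Tfeb and less Tfe3 than every control.

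**Figure D3:**
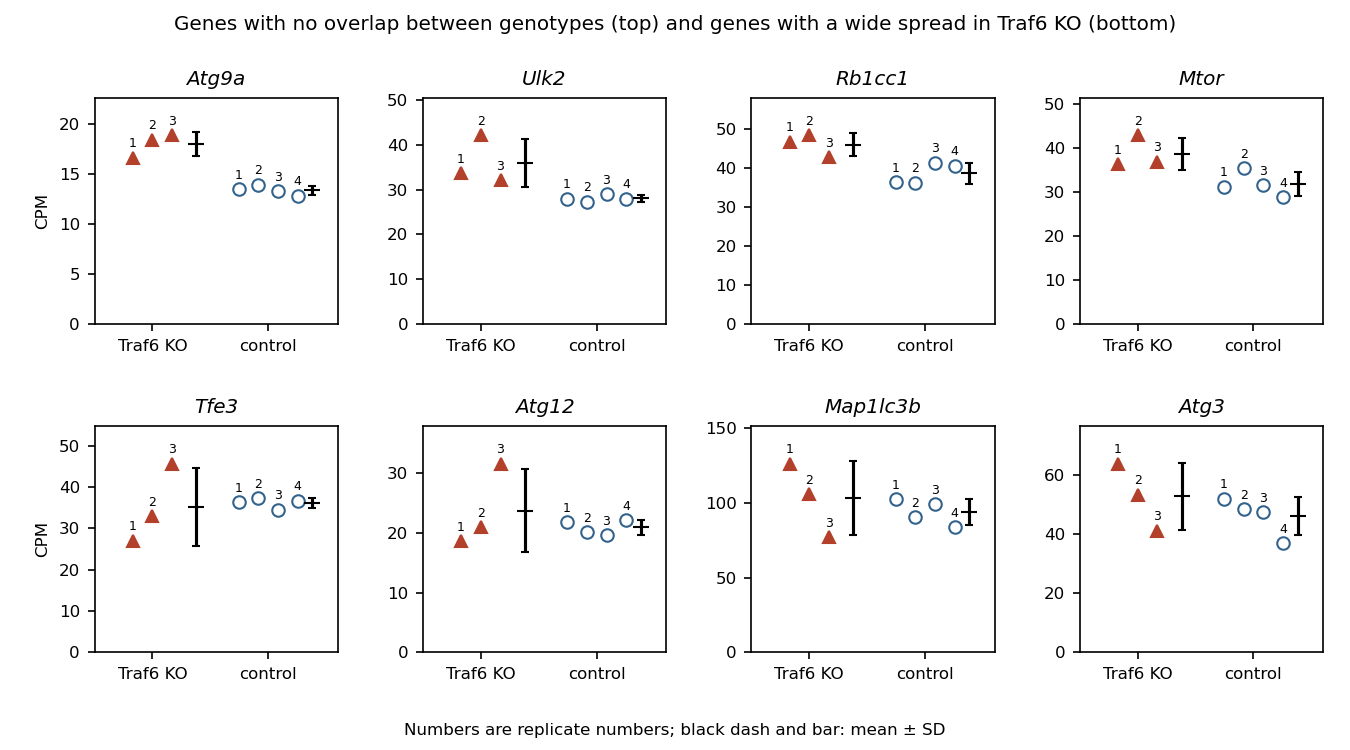
CPM in every library (y axes from 0) for the 4 genes whose genotypes do not overlap (top) and for 4 genes chosen after their values were seen for their spread among Traf6 KO libraries (bottom), with Traf6 KO on the left of each panel, replicate numbers beside the points and mean ± SD as a black dash and bar. Atg9a lies between 16.7 and 18.9 CPM in Traf6 KO and between 12.9 and 13.96 CPM in control, and for Tfe3, Atg12, Map1lc3b and Atg3 the Traf6 KO libraries lie on both sides of the control mean.

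Ratios of paralogues within a library do not depend on how libraries are scaled, and 5 pairs were compared. Wipi1 over Wipi2 gave count ratios of 0.669, 0.655 and 0.669 in Traf6 KO 1 to 3, against 0.462, 0.641, 0.481 and 0.555 in controls 1 to 4. All Traf6 KO ratios lay above all controls, with control 2 close below. The mean log2 ratio was higher by 0.33 in Traf6 KO (exact two-sided permutation p = 0.0571, the smallest that doubling the smaller tail of 35 splits gives, and 0.286 after Benjamini-Hochberg adjustment over the 5 pairs). Gabarapl1 over Gabarapl2 was 3.54, 3.66 and 3.77 in Traf6 KO and 3.59, 3.45, 3.16 and 2.99 in control, a log2 difference of 0.15 (exact p = 0.1143, adjusted 0.286). Its groups overlapped through control 1. Tfeb over Tfe3 was 0.473, 0.358 and 0.192 in Traf6 KO 1 to 3 and 0.217 to 0.283 in control (log2 difference 0.32, exact p = 0.457, adjusted 0.571). Map1lc3a over Map1lc3b was 0.329, 0.288 and 0.388 in Traf6 KO and 0.365 to 0.437 in control (log2 difference -0.22, exact p = 0.229, adjusted 0.381). Atg2a over Atg2b was 0.642 to 0.992 in Traf6 KO and 0.712 to 0.831 in control (log2 difference -0.05, exact p = 0.857, adjusted 0.857). No pair passed. An exact p from the absolute difference, an alternative chosen after seeing the data, can go down to 0.0286 and was again 0.0571 for the Wipi pair, with adjusted values of 0.286 or more for all 5 pairs.

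**Figure D4:**
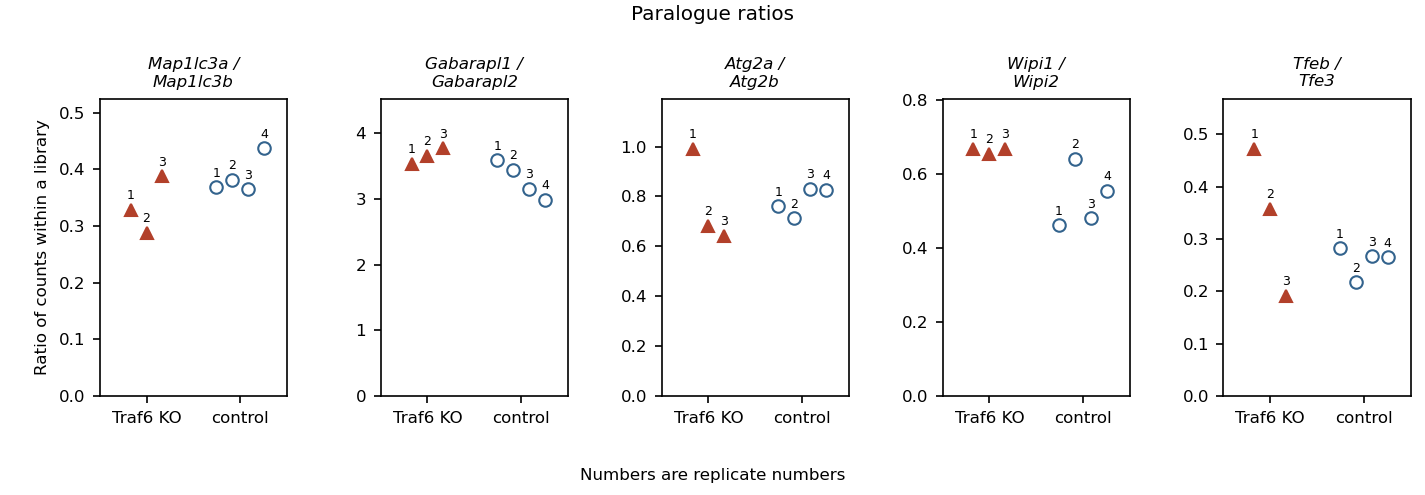
Count ratio of 5 paralogue pairs within each library (y axes from 0), with Traf6 KO on the left of each panel and replicate numbers beside the points. The Wipi1 to Wipi2 ratio is between 0.655 and 0.669 in Traf6 KO and no higher than 0.641 in control, and the Tfeb to Tfe3 ratio is spread from 0.192 to 0.473 within Traf6 KO.

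The 30 genes, like all genes tested, had a larger median spread among the Traf6 KO libraries than among the controls. The coefficient of variation was larger in Traf6 KO than in control for 24 of the 30 genes, with medians of 10.3% in Traf6 KO and 7.88% in control. Over all genes tested the medians were 22.2% in Traf6 KO and 13.5% in control, so the wider spread was not particular to the 30 genes. Among the 3 Traf6 KO libraries, Traf6 KO 1, with the largest acinar share, had the highest level of 15 of the 30 genes. Traf6 KO 3, with the smallest share, had the lowest level of 20. That library is also S-tagged and the one with Xist at 421 CPM, so tag, sex and acinar share could not be told apart there. Among the controls the count of highest levels was 9 for control 1, 8 for control 2, 10 for control 3 and 3 for the library labelled control 4. The same counts over all genes tested are not given here, so they do not show a trait of the 30 genes. The part of the acinar share in them was not tested. The median log2 deviation of the 30 genes from the control mean came to 0.15, 0.05 and -0.06 for Traf6 KO libraries 1 to 3, and 0.01, 0.01, 0.02 and -0.06 in controls 1 to 4. In a fit with the acinar level as a covariate, 15 of 30 log2 fold changes were above 0 and 15 below, from -0.35 for Gabarap to 0.47 for Atg9a, with a median of -0.003. Leaving out the acinar-rich libraries put 13 above 0 and 17 below (median -0.08), with Traf6 KO 3 as the only Traf6 KO library left. Over all genes tested the median was -0.003 with the covariate. Without the acinar-rich libraries it was -0.028, with 52.3% of all genes below 0. As a share of all counts, the 30 genes took 0.0800%, 0.110% and 0.186% in Traf6 KO 1 to 3 and 0.145%, 0.194%, 0.193% and 0.174% in controls 1 to 4, lowest where the acinar share was highest. After TMM scaling their summed level was 1600, 1491 and 1380 CPM in Traf6 KO and 1524, 1483, 1535 and 1361 CPM in control, so the groups overlapped. Summed macrophage markers were 146 to 261 CPM in Traf6 KO and 175 to 240 CPM in controls 1 to 3, with 523 CPM in the library labelled control 4, and their part in the values above was not tested.

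**Figure D5:**
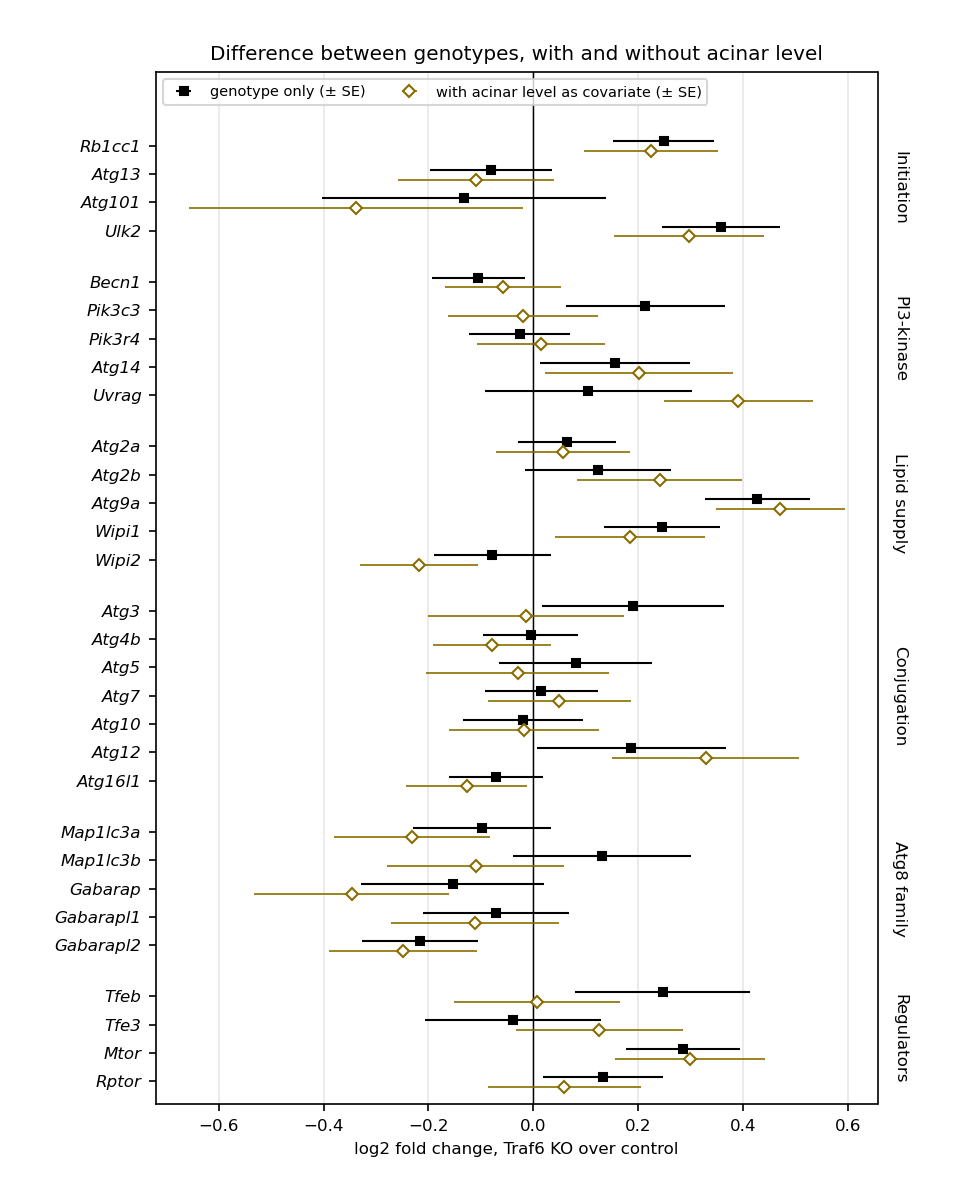
Log2 fold change, Traf6 KO over control, with its SE for each gene by role, from a fit with genotype only (black squares) and from the acinar-adjusted fit (open diamonds). Atg9a stays furthest right in both fits, whereas with the covariate Pik3c3, Atg3 and Map1lc3b lie below 0 and Tfeb at 0.01.

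Tfeb and Tfe3 bind the letters CACGTG, an E-box, so the annotated promoters of the members were searched for it. RefSeq windows on GRCm38.p6, from 250 bases before to 50 after an annotated start, were found for 24 of the 30 genes (27 windows). The letters CACGTG, the same on both strands, occurred in 4 of the 27 windows (14.8%) and in 2349 of 32851 windows of all genes (7.15%). The longer form TCACGTGA, which contains them, occurred in 1 of 27 (3.70%), that of Atg3, and in 0.974% of all windows. The 4 windows belong to Atg3, Atg5, Atg7 and Atg14, and they are shown because both factors are members of the set and vary between libraries. A match is a description of the letters and not a bound site. Each stretch reads 5′ to 3′ on the gene's strand, with CACGTG in capitals.
Atg3 (chr16:45158695-45158803, plus strand): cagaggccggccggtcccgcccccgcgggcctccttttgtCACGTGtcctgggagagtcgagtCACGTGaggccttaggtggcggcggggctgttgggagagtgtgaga
Atg5 (chr10:44268285-44268370, plus strand): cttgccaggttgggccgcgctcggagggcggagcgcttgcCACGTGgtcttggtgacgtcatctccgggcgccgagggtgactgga
Atg7 (chr6:114670924-114671009, plus strand): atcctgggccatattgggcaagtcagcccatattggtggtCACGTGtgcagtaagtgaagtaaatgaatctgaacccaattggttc
Atg14 (chr14:47568390-47568475, minus strand): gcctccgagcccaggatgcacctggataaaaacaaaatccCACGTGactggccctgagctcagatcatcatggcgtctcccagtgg

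In Atg3 the motif occurs at a pair of places, with first bases at -94 and -71 relative to the RefSeq start of its window. It begins at -132 in Atg7, -14 in Atg5 and -1 in Atg14. The RefSeq start lies 27999 bases inside the GENCODE M21 gene for Atg7, 2215 bases inside it for Atg14 and 44 bases inside for Atg3. Those distances are from the outer edge of the gene and do not tell whether a start is the main one. The log2 fold changes of these 4 genes, 0.19 for Atg3, 0.08 for Atg5, 0.02 for Atg7 and 0.16 for Atg14, lay inside the range of the other members.

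Outside the set, 52 further genes of autophagy and its nutrient control gave 0 calls by edgeR, with 25 log2 fold changes above 0 and 27 below (median -0.01). Before adjustment 14 of them (26.9%) had p under 0.05, against 16% of all genes, with 8 higher and 6 lower in Traf6 KO. Every Traf6 KO library lay above all controls for 6 (11.5%, against 5.58% of all genes) and below them for 9 (17.3%, against 8.68%). These shares describe the list and were not tested. Among 12 genes of initiation and lipid signalling, those with the smallest p were Vmp1, a lipid scramblase of the endoplasmic reticulum, Ulk1, the kinase related to Ulk2, Nrbf2, a subunit of the lipid kinase complex, and Smcr8. Ulk1 stood at 47.6, 56.1 and 43.5 CPM in Traf6 KO and at 42.9, 39.1, 40.7 and 37.6 CPM in control, a log2 fold change of 0.29 ± 0.11 SE (adjusted p = 0.271 in edgeR). Its groups did not overlap, like those of Ulk2, and the value was 0.19 in the acinar-adjusted fit and 0.14 without the 3 acinar-rich libraries. Vmp1 was at 0.38 ± 0.14, Nrbf2 at 0.27 ± 0.10 and Smcr8 at 0.26 ± 0.10 SE. Leaving out the acinar-rich libraries gave 0.13 for Vmp1, 0.27 for Nrbf2 and 0.37 for Smcr8. Of 6 other conjugation genes, Atg16l2 stood lower in every Traf6 KO library, at 24.7, 30.4 and 40.2 CPM against 41.2, 40.6, 42.6 and 47.6 CPM in control, with a log2 fold change of -0.43 ± 0.16 SE (adjusted p = 0.271 in edgeR). The Atg16l2 value was -0.28 in the acinar-adjusted fit (adjusted p = 0.442 in edgeR). It was -0.13 when the acinar-rich libraries were left out, which leaves 1 Traf6 KO library. Without Traf6 KO 3 it was -0.64 and passed (adjusted p = 0.0400 in edgeR). The proteases Atg4c and Atg4a were at 0.34 ± 0.14 and 0.19 ± 0.15, and Tecpr1 at -0.12 ± 0.09 SE. Of 13 fusion genes, the tethering subunits Vps16 and Vps11 were at -0.29 ± 0.10 and -0.16 ± 0.09, the fusion protein Snap29 at 0.30 ± 0.13 and Epg5 at 0.27 ± 0.16 SE. Leaving out the acinar-rich libraries gave -0.21 for Tecpr1, -0.06 for Atg4a, 0.20 for Snap29 and 0.44 for Epg5.

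The 21 genes of the nutrient pathway around mTORC1 ranged from -0.53 to 0.91, with 8 above 0 and 13 below. Prkaa2, the alpha 2 subunit of the energy sensor AMPK, stood at 13.2, 15.3 and 10.2 CPM in Traf6 KO 1 to 3, against 6.06, 8.75, 6.76 and 5.90 CPM in controls 1 to 4. Its groups were separate, with a log2 fold change of 0.91 ± 0.20 SE that did not pass edgeR (adjusted p = 0.183) and passed the DESeq2 Wald test (adjusted p = 0.00699). Prkaa2 also passed limma-voom with quality weights (adjusted p = 0.0306) and edgeR without Traf6 KO 3 (adjusted p = 0.0341). Mlst8, a subunit of the Mtor complex, stood at 13.4, 13.4 and 13.2 CPM in Traf6 KO and at 16.98, 17.4, 16.7 and 14.9 CPM in control, a log2 fold change of -0.31 ± 0.10 SE (adjusted p = 0.235 in edgeR). Its direction was opposite to that of Mtor. Lamtor1 and Lamtor4, which anchor the complex to lysosomes, were at -0.31 ± 0.09 and -0.53 ± 0.18 SE (adjusted p = 0.219 and 0.237 in edgeR). Leaving out the acinar-rich libraries gave 0.51 for Prkaa2 and -0.97 for Lamtor4. Of the 52 genes, limma-voom with quality weights called 7 (13.5%, against 6.46% of all genes), the DESeq2 Wald test 1 (1.92%, against 4.54%) and edgeR without Traf6 KO 3 called 3 (5.77%, against 4.24%). Those called with quality weights included Prkaa2, Ulk1, Atg16l2, Vps16, Lamtor1 and Lamtor4.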

How the data were processed

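RNA sequencing of 7 islet libraries, 3 Traf6 KO and 4 control, was used. The table the authors deposited holds raw counts, whole numbers for each gene and library. Per the submitters' processing notes, the tools were STAR 2.6.1b, RSEM 1.3.1 and FastQC and the build was GRCm38, with no role stated, so the counts may be rounded estimates. Strand setting and annotation are not stated. The labels do not say that libraries came from separate mice, so p-values measure the spread between these samples.

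The main test was edgeR 4.0.16 under R 4.3.3, a quasi-likelihood fit over all genes with TMM factors and genotype as the only term. Genes passed filterByExpr (count 10, total 15), and calls needed a Benjamini-Hochberg adjusted p under 0.05. TMM factors were 0.5, 0.74 and 1.351 in Traf6 KO 1 to 3 and 0.954, 1.305, 1.256 and 1.278 in controls 1 to 4, and every CPM given depends on them. The SE is the fold change over the square root of F. RPKM is CPM per kilobase of merged GENCODE M21 exons. DESeq2 1.42.0 and limma 3.58.1 served as alternatives, and scipy 1.17.1 ran the permutation tests. Fits were tested on simulated data with changes larger than any of the members and the same base composition in every library. That check therefore does not cover changes of the size seen here, nor scaling under unlike acinar shares. The acinar covariate is the mean log2(CPM + 1) of 25 markers. All pairs of libraries differed by more than sampling noise (lowest chi-square per gene 21.8).

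Members and gene lists were chosen with earlier results of these data known. The genes named are the 30 members, Traf6, and the 4 with the smallest p in each of 4 lists of other autophagy genes. Xist, Ankzf1, Gm29253 and the genes shown for their spread were named after their values were seen.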

Additional observations from a re-analysis of the deposited data

Results flagged for a closer look

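Each of 52 control groups (the 4 controls of the 30 members, of Traf6, of the 16 other named genes and of the 5 ratios) was searched for a library far from the rest by Dixon's test, which chance passes in about 1 of 20 groups. In 5 groups a library stood apart. Among the members these were Atg2a in control 1 at 27.6 CPM, Atg2b in control 2 at 43.4 CPM and Atg5 in the library labelled control 4 at 17.6 CPM. Among the other genes they were Tecpr1 at 53.7 CPM and Vps16 at 41.8 CPM, both in the library labelled control 4.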

How the results depend on the processing

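Over 20 alternatives, 544 of 600 member values kept their direction and their side of the threshold, 53 changed sign and 3 passed it. The counts below are of members or genes called against 0 by edgeR. Members called were 1 with the DESeq2 Wald test and 2 with quality weights. Genes called were 704 with the DESeq2 Wald test, 1046 with quality weights, 6 with the replicate block, 3 with the acinar covariate, 67 without the 3 acinar-rich libraries and 0 to 701 when each library was left out. Members below 0, 13 in all libraries, ran from 8 to 13 when each library was left out. The members' median, 0.07, was 0.032 with upper-quartile factors, 0.021 among Q- and R-tagged libraries, -0.003 with the acinar covariate and -0.081 without the 3 acinar-rich libraries. Over all genes tested the median was 0.005 in the main fit. In these alternatives it was, in the same order, -0.034, -0.030, -0.003 and -0.028. Same-numbered libraries deviated with correlations of 0.60, -0.18 and 0.45, so the numbers were not taken as pairs.

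Log2 fold changes that changed sign were near 0 in most cases. They were, with DESeq2 Wald, Atg10 0.001 and Atg4b 0.014; with DESeq2 size factors, Atg10 0.002 and Atg4b 0.018. With upper-quartile factors and with no low-count filter Atg7 was -0.024 and -0.007. Quality weights gave Atg16l1 0.001, Atg4b 0.058 and Atg7 -0.013. The replicate block gave Atg4b 0.020, Atg5 -0.010 and Atg7 -0.002. Q- and R-tagged libraries gave Atg12 -0.050, Atg4b 0.077, Atg7 -0.022, Uvrag -0.125 and the Atg2a to Atg2b ratio 0.101. The acinar covariate gave Atg3 -0.013, Atg4a -0.006, Atg5 -0.030, Map1lc3b -0.110, Pik3c3 -0.020, Pik3r4 0.015 and Tfe3 0.126. Without the 3 acinar-rich libraries the values were Atg10 0.066, Atg2a -0.094, Atg3 -0.116, Atg4a -0.058, Atg5 -0.166, Map1lc3b -0.253, Pik3c3 -0.146, Pik3r4 0.078, Rptor -0.101, Tfe3 0.326, Tfeb -0.047 and the Tfeb to Tfe3 ratio -0.371.

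When each library was left out, ranges that crossed 0 were Atg10 -0.059 to 0.051, Atg101 -0.425 to 0.044, Atg12 -0.079 to 0.334, Atg4b -0.028 to 0.049, Atg5 -0.024 to 0.196, Atg7 -0.004 to 0.060, Gabarapl1 -0.158 to 0.004, Map1lc3b -0.029 to 0.302, Pik3r4 -0.078 to 0.045, Tfe3 -0.272 to 0.123, Uvrag -0.146 to 0.276, Wipi2 -0.125 to 0.001 and the Atg2a to Atg2b ratio -0.240 to 0.074. The causes were not tested. With 4 and 3 libraries the SE of a member's log2 fold change had a median of 0.116, which limits what could pass.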
